A study of Mus musculus with 8 samples.

Results

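A set of 7 genes, listed together as ionocyte genes linked to Foxi transcription factors, was followed in the molar tooth epithelium of mouse embryos. The set is Ascl3, Atp6v1b1, Slc26a4, Cftr, Kcnj10, Car2 and Car12. Foxi1 activates several of these genes in ionocytes elsewhere, but not every member has a described Foxi link. The genes were taken by their Ensembl gene identifiers, and all 7 were found, each in 1 of the 26165 rows of the expression table. RNA from the mandibular molar epithelium at embryonic day E13.5 was measured on 8 arrays, 4 for each of 2 genotypes, and every array held epithelium separated with dispase and pooled from 5 embryos. In the Foxi3 conditional knockout (cKO) the genotype label reads K14-cre43;Foxi3-floxed: K14-cre43 is a transgene in which an epithelial keratin promoter drives Cre, and Cre deletes the floxed Foxi3 allele. The series' design text writes this genotype as K14-cre43;Foxi3-/floxed, with a null second allele. The controls are titled wild type but carry the genotype label Foxi3+/floxed, so both groups share a floxed allele. By the labels and the design text together, the groups differ in Cre, in a null allele and in the deletion itself. What each adds to a difference cannot be told apart.

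Ionocytes are scattered epithelial cells, rich in mitochondria, that move protons, bicarbonate and chloride across an epithelium. They include the intercalated cells of the kidney, cells of the endolymphatic sac of the inner ear, and clear cells of the epididymis. In mice the forkhead factor Foxi1 is needed there for the expression of the proton pump subunit gene Atp6v1b1 and, in kidney and inner ear, of the anion exchanger gene Slc26a4. In zebrafish skin the related Foxi3 factors specify ionocytes, while mouse Foxi3 is known for its part in the development of teeth, hair and other skin appendages. The comparison below asks whether genes of this ionocyte programme differ between Foxi3 cKO and wild-type molar epithelium.

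Of the arrays, 1 stood apart. Median signal was between 5.25 and 5.30 on 7 arrays and 5.44 on wild-type replicate 2, to which limma's array weights gave 0.20. Against the average of the remaining 3 wild-type arrays, that array stood at −0.018 for Car12, −0.020 for Car2 and −0.11 for Cftr. It stood above that average by 0.14 for Slc26a4, 0.17 for Ascl3, 0.18 for Atp6v1b1, 0.39 for Kcnj10 and 0.055 for the median gene. The fitted difference of each gene is given with and without that array. The level of Foxi3, the markers fixed for dental epithelium, mesenchyme, red blood cells and other cell types, and 5 lists of related genes (other ionocyte genes, proton pump subunits, carbonic anhydrases, anion exchangers and potassium channels) were not analysed here, because no table given pairs the identifiers with symbols. Neither the deletion nor the make-up of the pools was therefore checked.

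The differences of the 7 genes ran in both directions and most were small. Car12, which encodes a carbonic anhydrase on the cell surface, rose 1.50-fold in the cKO epithelium and was the only member called different (limma, Benjamini-Hochberg adjusted p = 0.048, threshold 0.05). That is 1 of 7 members, where 1.31% of all 26165 genes were called, and Car12 lay at the edge of the threshold: 341 genes had a smaller p and it was the last of the 342 called. The chloride channel gene Cftr differed by 0.49 and the cytosolic carbonic anhydrase gene Car2 by −0.21 on the log2 scale, cKO minus wild type, and neither passed the test (limma adjusted p = 0.23 and 0.13). No fold is given for these genes, since the mean signal of Cftr in wild type and of Car2 in both genotypes was below 4.72, the 40th percentile of all genes, and could not be told from background. The remaining members, Ascl3, Atp6v1b1, Slc26a4 and Kcnj10, differed by at most 0.10 in either direction on the log2 scale and did not pass. Mean signals of Ascl3 and Slc26a4 were also below 4.72 in both genotypes and could not be told from background. Their small differences therefore do not show that their RNA was unchanged. Over the 7 genes 2 differences were positive and 5 negative, and their median of −0.011 lay beside a median of −0.018 over all genes. The median size of the difference, without sign, was 0.10 among the 7 and 0.065 over all genes. Values are log2 expression.

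**Figure D1:**
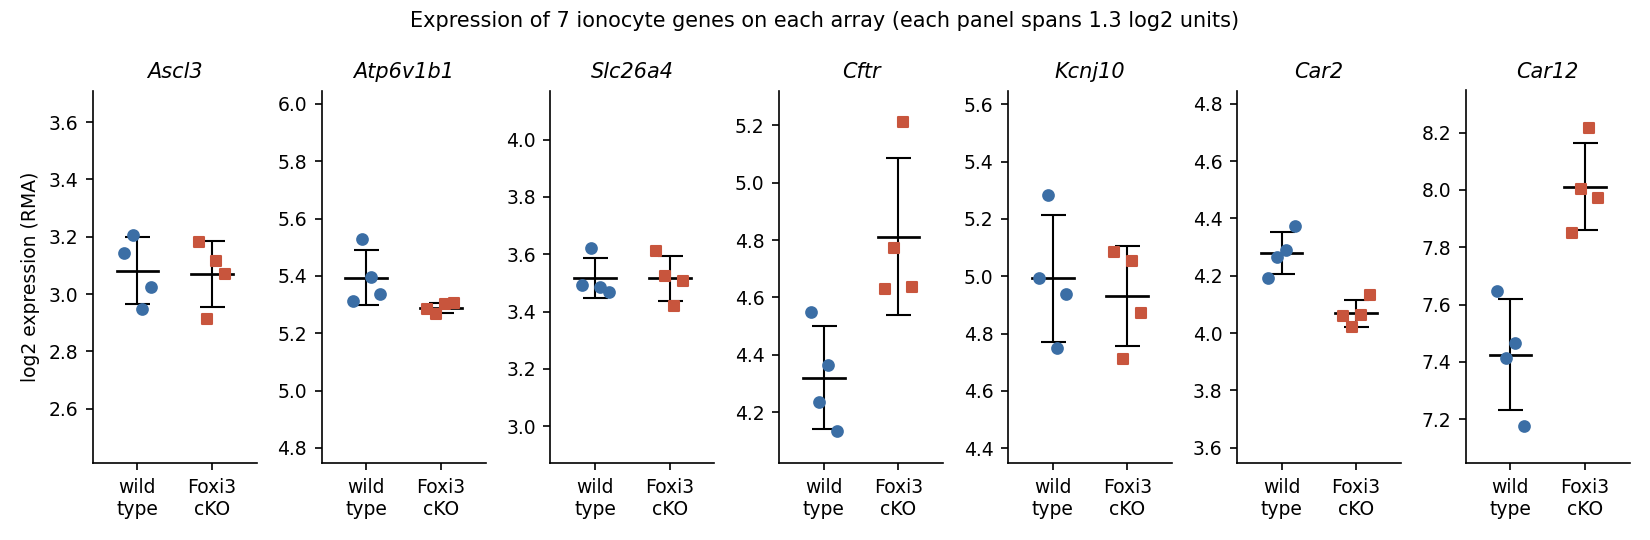
Log2 expression (y axis) of the 7 genes on each wild-type (blue circles) and Foxi3 cKO (red squares) array, with the mean (bar) and SD (whiskers) of 4 arrays; points run from replicate 1 at the left to replicate 4 at the right, and every panel spans the same height. The 4 cKO values of Car12 lie between 7.85 and 8.22, above the 7.18 to 7.65 of wild type, whereas Ascl3, Slc26a4 and Kcnj10 overlap between genotypes.

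RefSeq promoter windows were available for 6 of the 7 genes and run from 250 bases before to 50 bases after a transcript start (build GRCm38.p6). The windows of Car12 and Cftr are shown because these genes had the largest differences, and that of Atp6v1b1 because Foxi1 acts on this gene in mouse ionocytes. Capitals mark TGACATC in the first and second windows and a forkhead core in the third, read there on the opposite strand as GTAAACA.
Car12, chr9:66713436-66713735, plus strand: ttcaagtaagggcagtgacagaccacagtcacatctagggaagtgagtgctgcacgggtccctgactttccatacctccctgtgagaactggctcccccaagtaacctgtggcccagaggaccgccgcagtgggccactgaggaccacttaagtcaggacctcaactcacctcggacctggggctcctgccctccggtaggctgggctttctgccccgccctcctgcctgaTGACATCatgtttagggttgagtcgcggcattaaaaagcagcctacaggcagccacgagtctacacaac
Cftr, chr6:18170437-18170736, plus strand: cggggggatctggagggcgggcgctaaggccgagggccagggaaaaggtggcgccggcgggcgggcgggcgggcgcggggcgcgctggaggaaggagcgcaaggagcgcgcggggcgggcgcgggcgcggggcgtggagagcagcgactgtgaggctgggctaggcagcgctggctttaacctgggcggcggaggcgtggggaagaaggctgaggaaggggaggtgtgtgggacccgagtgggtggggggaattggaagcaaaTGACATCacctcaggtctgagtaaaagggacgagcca
Atp6v1b1, chr6:83742767-83743066, plus strand: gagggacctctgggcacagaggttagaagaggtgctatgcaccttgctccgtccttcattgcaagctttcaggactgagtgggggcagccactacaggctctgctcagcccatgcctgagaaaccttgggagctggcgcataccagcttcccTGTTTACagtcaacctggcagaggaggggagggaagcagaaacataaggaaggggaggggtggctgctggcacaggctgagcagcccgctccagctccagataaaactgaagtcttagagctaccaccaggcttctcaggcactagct
Forkhead cores were searched on both strands, with the letters GTAAACA or the letters ATAAACA or the letters GTAAATA. They were found in 2 of the 6 windows, GTAAACA in that of Atp6v1b1 and GTAAATA in that of Ascl3, and 10.6% of all 32851 windows of this length held at least 1 of the 3. GTAAACA alone was in 3.65% of all windows and GTAAATA in 3.04%. In the Atp6v1b1 window the core starts 98 bases before the transcript start. None of these letters was found in the windows of Car12, Cftr, Slc26a4 and Kcnj10, which says nothing about sites elsewhere in these genes.

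The windows of Car12 and Cftr both held TGACATC, a variant of the cyclic AMP response element TGACGTC. This motif was searched for after both sequences had been read, so it is a description only. It starts 19 bases before the transcript start of Car12 and 13 bases after that of Cftr. TGACATC on either strand was in 5.82% of all windows, TGACGTC in 3.21%, and neither was in the other 4 windows of these genes. The windows otherwise differed: that of Cftr held 31 CpG dinucleotides and 71.3% G and C, that of Car12 held 9 and 58.3%, and the median window held 7 and 52.7%.

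Carbonic anhydrases convert carbon dioxide and water to bicarbonate and a proton, and so feed both proton pumps and anion exchangers. Car12 (ENSMUSG00000032373) had log2 values of 7.65, 7.41, 7.47 and 7.18 in wild-type replicates 1 to 4 and of 7.85, 8.003, 8.22 and 7.97 in cKO replicates 1 to 4. All 4 cKO arrays were above all 4 wild-type arrays, and a gap of 0.20 separated the groups. The cKO mean of 8.01 ± 0.15 (SD, n = 4) and the wild-type mean of 7.43 ± 0.19 (SD, n = 4) gave a difference of 0.58 (SE 0.11, 95% interval 0.33 to 0.84, limma adjusted p = 0.048). In bulk epithelium a change in the number of cells that express the gene and a change in RNA per cell cannot be told apart. Of all genes, 0.516% differed by at least as much as Car12 in either direction.

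Across settings the Car12 difference kept its sign and most of its size, but not its call. Over 16 alternative settings it ranged from 0.50 to 0.66, while its limma adjusted p ranged from 0.023 to 0.19 and passed the threshold in 5 of them. The call ended on leaving out any single array except wild-type replicate 1, with adjusted p between 0.086 and 0.15 in those 7 fits and 0.047 without wild-type replicate 1. Leaving out wild-type replicate 2, an array with a higher median signal than the others, left the difference at 0.58 (limma adjusted p = 0.10). With arrays centred on their medians it was 0.62 (limma adjusted p = 0.055) and with cyclic loess 0.57 (limma adjusted p = 0.0502).

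**Figure D2:**
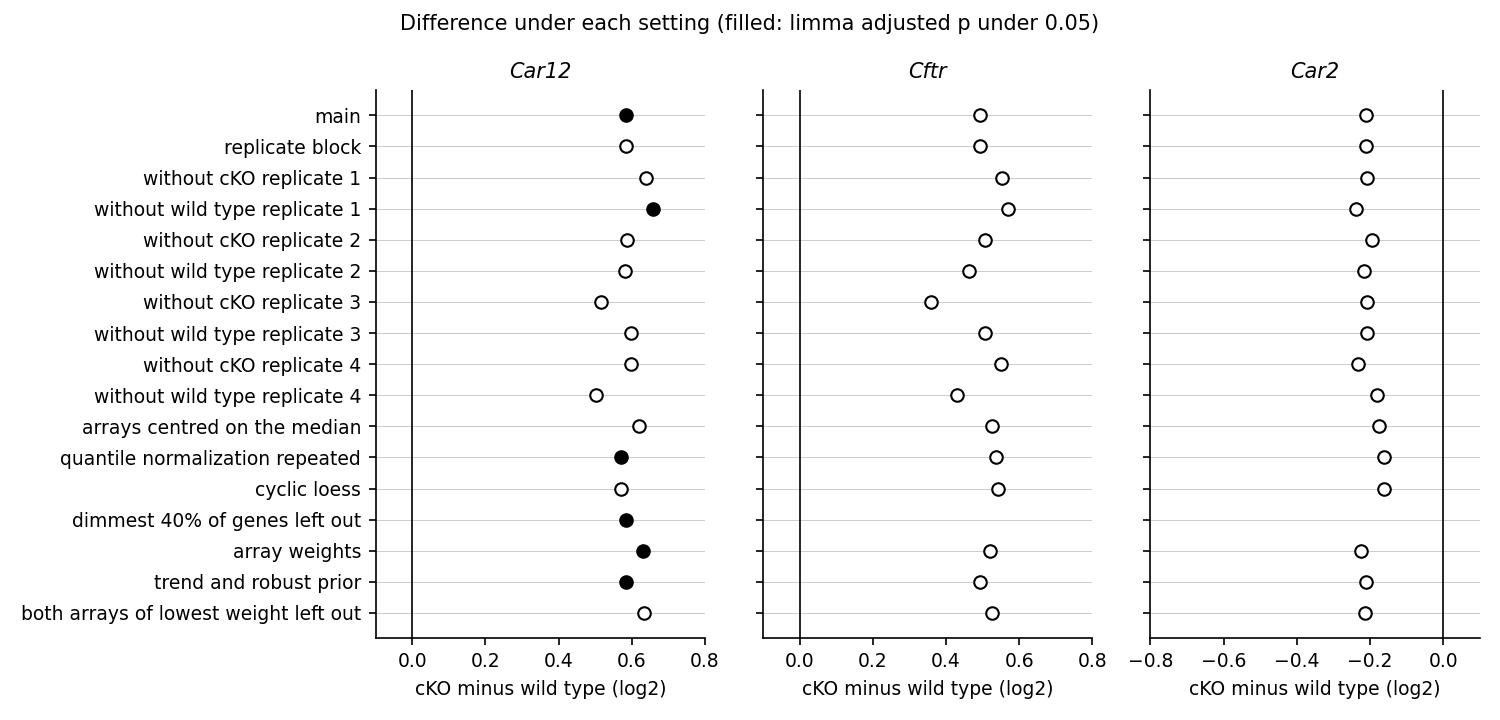
Difference in log2 expression, Foxi3 cKO minus wild type (x axes), of Car12, Cftr and Car2 under the main setting and each alternative (rows); filled points have a limma adjusted p under 0.05. Car12 stays between 0.50 and 0.66 and is filled in the main setting and 5 alternatives, while no point of Cftr or Car2 is filled; the row without the dimmest 40% of genes has a point for Car12 only.

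Car2 (ENSMUSG00000027562) encodes the abundant cytosolic carbonic anhydrase, which is also found in red blood cells and osteoclasts. Its log2 values were 4.19, 4.26, 4.29 and 4.37 in wild-type replicates 1 to 4 and 4.06, 4.02, 4.06 and 4.13 in cKO replicates 1 to 4. In the deposited values the groups did not overlap, and every cKO value was lower, the opposite direction to Car12. The difference was −0.21 (SE 0.051, 95% interval −0.33 to −0.095, limma adjusted p = 0.13). This interval belongs to the single gene and is not widened for the number of genes tested. With arrays centred on the median the difference was −0.18 (limma adjusted p = 0.54), and over 15 alternatives it ranged from −0.24 to −0.16 without passing, at −0.22 without wild-type replicate 2 (limma adjusted p = 0.15). Car2 was dim, at the 29.9th percentile of mean signal. Of the genes below the 40th percentile, 0.287% were called. Differences at least as large were seen in 9.47% of all genes.

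The plot of differences sets both carbonic anhydrases beside the other members.

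**Figure D3:**
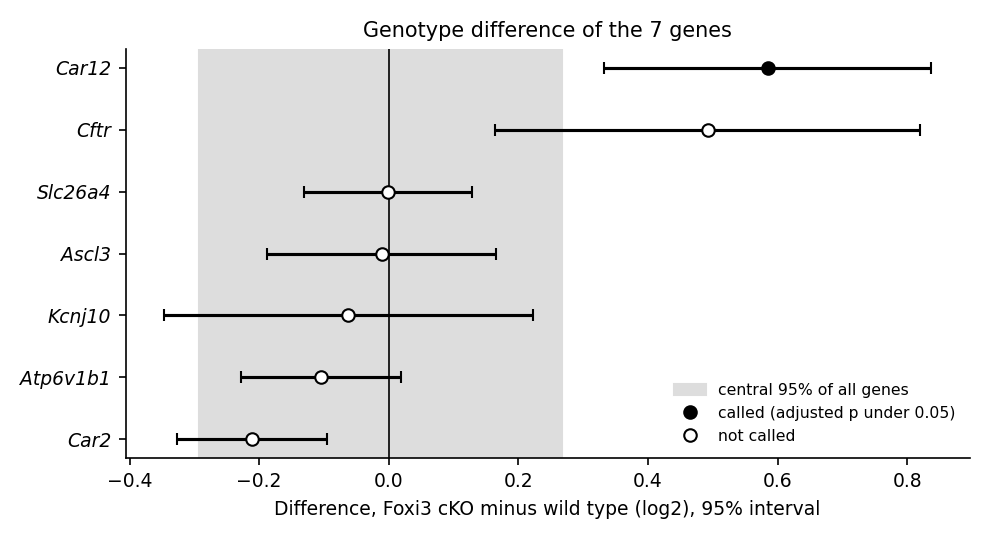
Difference in log2 expression, Foxi3 cKO minus wild type (x axis), of the 7 genes with the moderated 95% interval; the filled point is called at a limma adjusted p under 0.05, open points are not, and the grey band holds the central 95% of all genes. Car12 at 0.58 and Cftr at 0.49 lie to the right of the band, which runs from −0.29 to 0.27, and the other 5 lie inside it.

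Among the anion transport genes, Cftr (ENSMUSG00000041301) encodes a chloride and bicarbonate channel opened by cyclic AMP signalling and is expressed, in mouse and human airways, at a high level per cell in pulmonary ionocytes. Its log2 values were 4.55, 4.24, 4.36 and 4.13 in wild-type replicates 1 to 4 and 4.63, 4.77, 5.21 and 4.64 in cKO replicates 1 to 4. The groups did not overlap, although the lowest cKO array exceeded the highest wild-type array by 0.079 only and cKO replicate 3 stood well above the others. The cKO mean of 4.81 ± 0.27 (SD, n = 4) and the wild-type mean of 4.32 ± 0.18 (SD, n = 4) gave a difference of 0.49 (SE 0.14, 95% interval 0.16 to 0.82, limma adjusted p = 0.23). Without cKO replicate 3 it was 0.36 (limma adjusted p = 0.30), the lowest of 15 alternatives, whose highest was 0.57. Without wild-type replicate 2 it was 0.46 (limma adjusted p = 0.33). The spread among the cKO arrays was at the 93.9th percentile of all genes. A difference at least as large was measured in 0.925% of all genes. Cftr lay at the 37.3rd percentile of mean signal. Its wild-type values and those of cKO replicates 1 and 4 (4.63 and 4.64) were below 4.72 and could not be told from background.

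Slc26a4 (ENSMUSG00000020651) encodes pendrin, an exchanger of chloride for bicarbonate or iodide and a target of Foxi1 in the mouse inner ear and kidney. It was at 3.49, 3.62, 3.49 and 3.47 in wild-type replicates 1 to 4 and at 3.61, 3.52, 3.42 and 3.51 in cKO replicates 1 to 4. The genotypes overlapped throughout. The difference was −0.0017 (SE 0.057, 95% interval −0.13 to 0.13, limma adjusted p = 0.99). This interval belongs to the measured signal, which was dim, and does not bound a change in Slc26a4 RNA. Without wild-type replicate 2 the difference was 0.033 (limma adjusted p = 0.89). The signal was at the 19.3rd percentile of all genes, and could not be told from background in either genotype.

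Ascl3 (ENSMUSG00000035951) is a transcription factor of the basic helix-loop-helix family that marks ionocytes of the airway and duct cells of the salivary gland. It had the dimmest signal of the 7, at the 13.4th percentile, with log2 values of 3.14, 3.21, 2.95 and 3.03 in wild-type replicates 1 to 4 and of 3.18, 2.91, 3.12 and 3.07 in cKO replicates 1 to 4. The groups overlapped over almost their whole range, and the signal could not be told from background in either genotype. The difference was −0.011 (SE 0.077, 95% interval −0.19 to 0.17, limma adjusted p = 0.97), and 0.031 without wild-type replicate 2 (limma adjusted p = 0.94).

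Atp6v1b1 (ENSMUSG00000006269) encodes the B1 subunit of the vacuolar proton pump, the form used by acid-secreting cells. Its log2 values in wild-type replicates 1 to 4 were 5.31, 5.53, 5.40 and 5.34, and those in cKO replicates 1 to 4 were 5.29, 5.27, 5.30 and 5.30. Every cKO array was below every wild-type array, but by 0.010 at the closest pair. The difference was −0.10 (SE 0.054, 95% interval −0.23 to 0.019, limma adjusted p = 0.61). Without wild-type replicate 2, the highest array for this gene, it was −0.060 (limma adjusted p = 0.64). For Atp6v1b1 that array exceeded the average of the remaining 3 wild-type arrays by 0.18, and for the median gene by 0.055. The Atp6v1b1 difference was −0.070 with arrays centred on the median, −0.071 with repeated quantile normalization and −0.069 with cyclic loess. Beyond these fits, the part of the array-wide shift in the difference was not tested.

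Kcnj10 (ENSMUSG00000044708) encodes an inwardly rectifying potassium channel of kidney tubules, glia and the stria vascularis of the inner ear. It was at 5.00, 5.29, 4.75 and 4.94 in wild-type replicates 1 to 4 and at 5.08, 4.71, 5.05 and 4.87 in cKO replicates 1 to 4. The highest wild-type array was replicate 2, 0.39 above the mean of the others, and the genotypes overlapped. The difference was −0.062 (SE 0.12, 95% interval −0.35 to 0.22, limma adjusted p = 0.90), and it was 0.035 without wild-type replicate 2 (limma adjusted p = 0.96). Its spread was wide, at the 83.8th percentile of all genes in the cKO and the 82.6th in wild type.

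In the deposited values the genotypes did not overlap in 4 of the 7 genes, 2 higher in the cKO (Car12 and Cftr) and 2 lower (Car2 and Atp6v1b1). Over all genes such separation was found in 7.85%, with 4.14% higher and 3.71% lower in the cKO. The 2 lower separations are not firm. For Car2, cKO replicate 4 was at 4.13 on an array with a median of 5.27. Wild-type replicate 2 was at 4.26 with a median of 5.44, so relative to the array medians these arrays reverse and the groups overlap. For Atp6v1b1 the gap was 0.010. Separation was not counted over all genes on centred arrays. Without overlap, an exact permutation test over the 70 assignments of 8 arrays to 2 groups of 4 can only give its smallest p. This exact permutation test gave p = 0.029, two-sided and unadjusted, for each of these 4 genes, and so only restates their separation. It gave p = 1 for Slc26a4, 0.91 for Ascl3 and 0.69 for Kcnj10 (exact permutation test, two-sided). An unadjusted limma p under 0.05 was obtained for 3 of the 7, Car12, Car2 and Cftr, against 9.67% of all genes.

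In the deposited values Car12 and Cftr also ordered the arrays alike. From lowest to highest, both genes ran through wild-type replicates 4, 2, 3 and 1 and then cKO replicates 1, 4, 2 and 3. Cftr was nearly tied in cKO replicates 1 and 4, at 4.63 and 4.64. Its wild-type replicates 4 and 2, at 4.13 and 4.24, reverse relative to their array medians of 5.26 and 5.44, so the shared order is then lost. The shared order was noticed in the values and is a description without a test. The wild-type arrays of Cftr are also ranked on a dim signal. The arrays are pools measured once, and each pair of values comes from the same RNA, and the part of other differences between the pools was not tested.

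**Figure D4:**
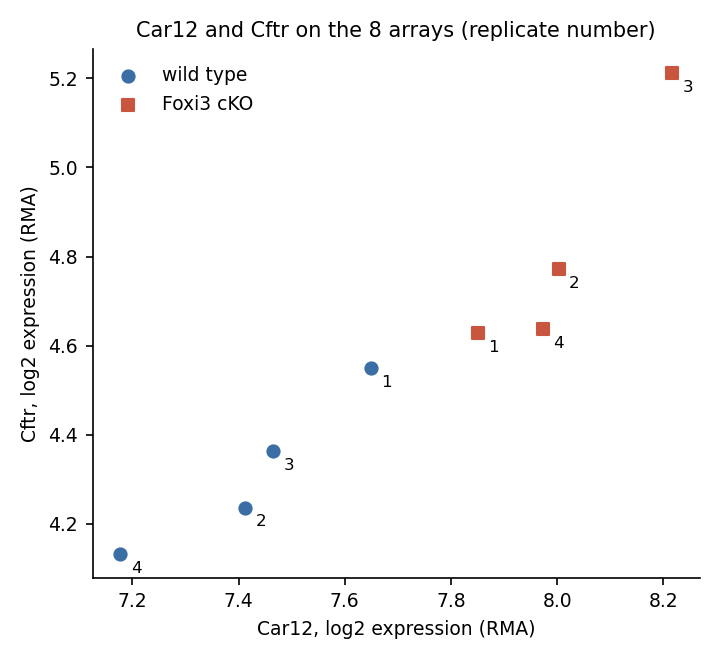
Log2 expression of Car12 (x axis) and Cftr (y axis) on each array, with wild type as blue circles, Foxi3 cKO as red squares and the replicate number beside each point. In these deposited values the 8 arrays have the same order on both axes, from 7.18 and 4.13 in wild-type replicate 4 to 8.22 and 5.21 in cKO replicate 3.

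Car12 varied most over the 8 arrays (SD 0.35) and was therefore the member used to look for genes of like pattern. Among the 15698 other genes above the 40th percentile of mean signal, the highest Pearson r with Car12 over the 8 arrays was 0.985, for ENSMUSG00000013611, and the next was 0.984, for ENSMUSG00000031762. These values are descriptive, since the 2 genotypes form separate groups of points and the genes were picked for the value. ENSMUSG00000013611 was 0.49 higher in the cKO (limma adjusted p = 0.016) and ENSMUSG00000031762 was 0.54 higher (limma adjusted p = 0.084). The table does not pair these identifiers with gene symbols.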

How the data were processed

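Log2 expression was taken from the single table the authors deposited, with a row for each Ensembl gene identifier, and the submitters' processing notes name RMA as the method. RMA corrects background, equalises the arrays and summarises probes, and it narrows the differences of dim genes. The RMA version, array model and genome build are not given in the sources used here. Columns were matched by sample accession, no 2 arrays held identical values, and no detection call was used. Member symbols came with the list of identifiers. None of the 26165 identifiers was found in the RefSeq gene table, so no other gene was named and the planned lists were not run.

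Differences were tested in limma 3.58.1, run in R 4.3.3 (linear fit with genotype as the only term, empirical Bayes variance, all genes, two-sided, Benjamini-Hochberg over all genes, threshold 0.05), and the script was tested on simulated data. Below the 40th percentile of mean signal (4.72) a gene was called dim. Every member was named whatever its values, and by the naming rule also the 2 genes of highest Pearson r with the member that varied most. Members, lists and tests were chosen with earlier results of these data known. The labels do not say that a replicate number marks a shared litter or day, nor that pools were processed separately, so p-values reflect only how much these pools vary. The number of arrays limits the precision. Alternatives were a replicate block, leaving out arrays, other normalizations, weights, priors and a filter on dim genes.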

Additional observations from a re-analysis of the deposited data

Results flagged for a closer look

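Slc26a4 in wild-type replicate 2 was at 3.62 (3.6225), the highest of its group, and lay far from the other 3 wild-type arrays, which were between 3.47 and 3.49. It was the only array to stand apart in this way among 14 checked groups of 4 (7 genes in 2 genotypes). Chance flags about 1 in 20 groups. The same array was 0.055 above the other wild-type arrays for the median gene and 0.14 above them for Slc26a4, and without it the Slc26a4 difference was 0.033 in place of −0.0017 (limma adjusted p = 0.89).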

How the results depend on the processing

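The 342 calls over all genes became 18 with the replicate number as a block, 196 with arrays centred on the median, 575 with array weights, 106 without the pair of arrays that limma weighted least (cKO replicate 1 and wild-type replicate 2, an alternative chosen after seeing the data) and 119 to 303 on leaving out 1 array. Without the dimmest 40% of genes 503 of 15699 were called. Calls higher in the cKO went from 180 of 342 to 131 of 196 with centring. Of the 7 members, 1 was called (Car12), and 0 with the replicate block (limma adjusted p = 0.19 for Car12), with centring (0.055), with cyclic loess (0.0502) and without that pair (0.14). Leaving out 1 array gave 0 to 1 called members. Car12 was called with repeated quantile normalization, array weights, the trend and robust prior and the filter on dim genes. The block changed no other member's call; the same-numbered arrays' deviations correlated at −0.046, −0.090, −0.037 and 0.020, so the numbers were not taken as pairs. Where an array was left out, each fit had fewer samples; the cause of the other changes was not tested. The 4 members below the 40th percentile drop out under the filter. Car12, Cftr, Car2 and Atp6v1b1 kept their sign under every alternative run. The others, none of them called, changed sign. Slc26a4 became 0.033 with centring, 0.043 with repeated quantile normalization, 0.036 with cyclic loess, 0.014 with array weights and 0.0013 without that pair, and ranged from −0.034 to 0.033 on leaving out 1 array. Ascl3 became 0.024 with centring, 0.021 with repeated quantile normalization and 0.019 with cyclic loess, and ranged from −0.055 to 0.041 on leaving out 1 array. Kcnj10 ranged from −0.14 to 0.035 on leaving out 1 array. Without detection calls, the signals of Ascl3, Slc26a4 and Car2, and that of Cftr in wild type and in cKO replicates 1 and 4, could not be told from background.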
